A study of Homo sapiens with 8 samples.

Results

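Antisense long noncoding RNAs whose gene symbols carry the -AS ending were examined, a name given in most cases after a protein-coding gene that the locus lies against on the opposite strand. A locus was taken as a member when its Ensembl identifier had an -AS symbol and its mean level was at least 0.5 FPKM (fragments per kilobase of transcript, scaled to the total of mapped fragments) over the 4 libraries of each cell line. Of 1215 -AS loci with values, 347 reached this level in HepG2, 346 in LM3 and 298 in both, and 820 reached it in neither. Leaving out 5 antisense loci of the HOX clusters and 4 other -AS loci left out by name gave 289 members of 15469 loci with values. At the edge of the level filter, INO80D-AS1 was just inside with a mean of 0.5 FPKM in LM3, and NEXN-AS1 was just outside with 0.498 FPKM in HepG2.

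The study profiled long noncoding RNAs in HepG2 and LM3, labelled as hepatocellular carcinoma cell lines, after JQ1 or vehicle. The 4 groups were HepG2 with vehicle (DMSO), HepG2 with JQ1, LM3 with vehicle (DMSO) and LM3 with JQ1, with 2 libraries each and 8 in all. JQ1 is a small molecule that occupies the acetyl-lysine pockets of BET proteins and displaces them from chromatin. No source used here gives its dose or the length of treatment, or says whether the 2 libraries of a group came from separate cultures, so the p-values measure only the spread between these libraries. In each line the comparison asks which antisense RNAs differ with JQ1, and across lines whether their response differs.

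Antisense transcripts are made from the strand opposite a coding gene and usually share part of its sequence in reverse complement. Some start beside the promoter of the coding gene and run away from it or across its first exons, some start inside it, and some start beyond its 3′ end and run back into it. Individual members act on their partner by masking sites in its mRNA, by recruiting chromatin-modifying complexes to its promoter or through transcription across it, whereas others act away from their locus or have no known function.

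The starts of 6 members that changed in both lines are shown here as the RefSeq promoter windows, 250 bases before to 50 bases after the start (assembly GRCh38.p14), 5′ to 3′ on the strand of the lncRNA. They were taken in order of the size of the change where the RefSeq start lay within 100 bases of the listed start. In each window the capitals mark the matches to 1 motif, either the GC box GGGCGG or the E-box CACGTG, on either strand. SBF2-AS1 (chr11:9758043-9758342, plus strand), CEACAM16-AS1 (chr19:44725134-44725433, minus strand), ASB16-AS1 (chr17:44186668-44186967, minus strand) and GOLGA4-AS1 (chr3:37244146-37244445, minus strand) hold GC boxes, the last one on the opposite strand. PLS3-AS1 (chrX:115562682-115562981, minus strand) and PRKCH-AS1 (chr14:61322769-61323068, minus strand) hold an E-box. ASB16-AS1 rose with JQ1 in both lines, and the other members shown fell in both.
SBF2-AS1: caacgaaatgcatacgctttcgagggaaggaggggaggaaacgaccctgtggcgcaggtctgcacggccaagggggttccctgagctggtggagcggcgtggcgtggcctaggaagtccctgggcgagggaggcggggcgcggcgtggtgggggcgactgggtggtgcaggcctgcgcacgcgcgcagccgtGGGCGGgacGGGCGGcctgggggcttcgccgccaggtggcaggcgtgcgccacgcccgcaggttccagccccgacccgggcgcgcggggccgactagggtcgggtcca
CEACAM16-AS1: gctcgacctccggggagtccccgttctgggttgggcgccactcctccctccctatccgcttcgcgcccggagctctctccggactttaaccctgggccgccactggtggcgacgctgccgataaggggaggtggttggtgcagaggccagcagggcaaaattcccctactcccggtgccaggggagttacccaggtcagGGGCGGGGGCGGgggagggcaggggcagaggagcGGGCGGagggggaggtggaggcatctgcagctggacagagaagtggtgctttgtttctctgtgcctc
PLS3-AS1: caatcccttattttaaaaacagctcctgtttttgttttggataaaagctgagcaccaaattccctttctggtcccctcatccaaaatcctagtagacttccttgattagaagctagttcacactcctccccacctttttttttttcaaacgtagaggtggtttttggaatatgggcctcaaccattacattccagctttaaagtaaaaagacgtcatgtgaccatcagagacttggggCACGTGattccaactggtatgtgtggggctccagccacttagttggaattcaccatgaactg
ASB16-AS1: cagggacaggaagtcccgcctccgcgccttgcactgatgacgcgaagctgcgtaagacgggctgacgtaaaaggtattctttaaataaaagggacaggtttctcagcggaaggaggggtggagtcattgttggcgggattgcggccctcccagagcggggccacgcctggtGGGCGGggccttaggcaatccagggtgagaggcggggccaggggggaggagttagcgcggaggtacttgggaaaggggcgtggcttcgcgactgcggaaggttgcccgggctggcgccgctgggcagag
GOLGA4-AS1: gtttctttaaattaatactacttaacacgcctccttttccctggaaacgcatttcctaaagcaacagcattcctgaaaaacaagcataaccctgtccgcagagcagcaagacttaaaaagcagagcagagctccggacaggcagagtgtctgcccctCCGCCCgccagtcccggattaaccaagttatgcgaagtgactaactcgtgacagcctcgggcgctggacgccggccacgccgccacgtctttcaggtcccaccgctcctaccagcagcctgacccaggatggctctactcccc
PRKCH-AS1: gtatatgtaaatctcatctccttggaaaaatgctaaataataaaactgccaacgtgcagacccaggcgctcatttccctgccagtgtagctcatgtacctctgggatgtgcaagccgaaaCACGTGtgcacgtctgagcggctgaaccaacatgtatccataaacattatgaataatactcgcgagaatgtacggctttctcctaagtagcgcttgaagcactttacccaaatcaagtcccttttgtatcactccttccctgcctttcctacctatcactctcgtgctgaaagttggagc

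RefSeq promoter windows were found for 236 of the 289 members, and 151 of them had a RefSeq start within 100 bases of the start listed in the files. The GC box GGGCGG was present on either strand in 66.5% of the member windows and in 45% of all 35116 RefSeq windows of the same length. The E-box CACGTG was in 11.4% of member windows and 7.26% of all windows, the ETS core CCGGAA in 27.5% and 17.2%, and the CCAAT box in 32.2% and 34.6%. TATAAA was in 4.24% of member windows against 11.5% of all windows, and the AP-1 site TGACTCA was in 4.66% against 4.95%. The median GC content was 66.2% in member windows and 58.7% in all windows. Among the 31 windows of members lower with JQ1 in both lines, 71.0% held a GC box and 12.9% an E-box, beside 66.5% and 11.6% of the 155 windows of members called in neither line. The AP-1 letters were in 4 of these 31 windows (12.9%) and in 5 of the 155 (3.23%), and CCAAT was in 7 (22.6%) and 58 (37.4%). The member shares are over all 236 windows, also those whose RefSeq start lies more than 100 bases from the listed start. Members had to pass the level filter, while the 35116 RefSeq windows were not chosen by level. These shares are descriptions of letters in a window and were not tested.

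GENCODE release 29 classes 224 of the members as antisense, 35 as processed transcripts, 25 as intergenic, 3 as bidirectional promoter RNAs and 1 as coding (KRT10-AS1), and 1 member is not in that release. By position, 120 members start within 2000 bases of the start of their partner gene, 69 start inside the partner, and 95 start beyond its 3′ end and overlap it from that side. Of the other 5, FAM131B-AS2 and HILPDA-AS1 lie on the same strand as the gene they are named after, IGFL2-AS1 and LYRM4-AS1 do not overlap it, and no partner was found for TRD-AS1. An exon of 236 members lies over an exon of a coding gene on the opposite strand. No source used here says whether reads were counted by strand, so reads of the coding gene and of the antisense RNA cannot be told apart at such exons. In 17 members, with ADAMTSL4-AS1, IRF1-AS1, KRT10-AS1 and PCBP1-AS1 among those described below, an exon lies over a coding-gene exon of the same strand, where strand would not separate the reads either. The spans of 144 members overlap that of another listed locus on the same strand, over at least 0.5 of the shorter span. Such members can also share reads with that locus where exons overlap, which was not examined. Values for the coding partners are not analysed here.

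The antisense RNAs were present at low to moderate levels in both lines, and all 289 had values above 0 in all 8 libraries. The median member level was 1.71 FPKM in HepG2 (range 0.502 to 46.1) and 1.5 FPKM in LM3 (range 0.5 to 27.6). The values of each line were deposited apart and may have been normalized separately, so differences in level between lines are uncertain. The most abundant member in HepG2 was IGFL2-AS1, which lies near the gene of an insulin growth factor-like peptide. Its vehicle libraries read 38.22 and 34.19 FPKM and its JQ1 libraries 57.42 and 54.58 FPKM in HepG2, against 10.46 and 10.07 FPKM and 10.31 and 11.26 FPKM in LM3. In LM3 the most abundant was FGD5-AS1, opposite the gene of a guanine nucleotide exchange factor for CDC42, at 27.48 and 28.58 FPKM with vehicle and 29 and 25.49 FPKM with JQ1. FGD5-AS1 was at 25.52 and 26.95 FPKM with vehicle and 24.05 and 24.44 FPKM with JQ1 in HepG2, and passed the test in neither line. ZNF232-AS1 was between 18.02 and 22.34 FPKM over the 4 libraries of HepG2 and between 8.59 and 10.33 FPKM in LM3. NUTM2A-AS1 (18.32 to 21.76 FPKM in HepG2, 22.12 to 24.20 FPKM in LM3), NUTM2B-AS1 (14.17 to 17.95 and 17.17 to 21.36 FPKM) and UGDH-AS1 (16.92 to 17.98 and 18.95 to 23.99 FPKM) were also abundant and passed the test in neither line. NUTM2A-AS1 and NUTM2B-AS1 come from near-identical copies of one gene family, so the split of reads between them is uncertain.

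**Figure D1:**
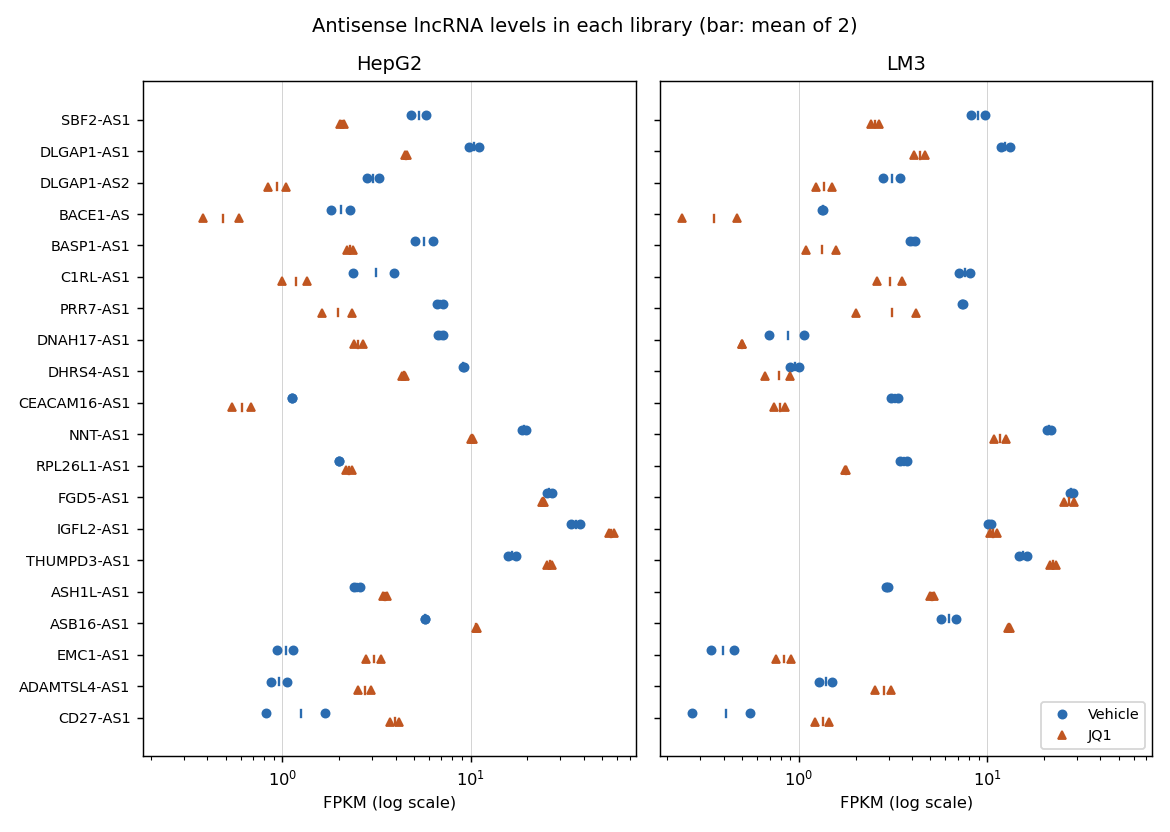
Levels of antisense lncRNAs in single libraries, in FPKM on a log axis, with 1 panel per line and 1 line of points per member. Circles are vehicle libraries, triangles JQ1 libraries and bars the mean of 2 libraries. SBF2-AS1 lies between 4.80 and 5.82 FPKM in the HepG2 vehicle libraries and between 2.02 and 2.13 FPKM in the HepG2 JQ1 libraries.

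The summed level of the members was lower with JQ1 in both lines. In HepG2 it was 998 and 967 FPKM with vehicle and 894 and 915 FPKM with JQ1, and in LM3 it was 999 and 1021 FPKM with vehicle and 861 and 876 FPKM with JQ1. The vehicle and JQ1 libraries did not overlap in either line. The share of FPKM in ribosomal RNA and mitochondrial loci was higher with JQ1, from 16.2% and 16.7% to 18.1% and 19% in HepG2 and from 19.3% and 20.0% to 21.5% and 23.3% in LM3, and its part in the lower sum was not tested. As a share of the FPKM outside those loci the members took 3.88% and 3.95% with vehicle and 3.49% and 3.45% with JQ1 in HepG2, and 3.63% and 3.57% against 3.21% and 3.29% in LM3. In bulk RNA, fewer cells making a transcript and less of it per cell cannot be told apart.

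The FPKM total per library ranged from 29369 to 35742 and the loci above 0 from 11230 to 12332; fragment counts per library are not given in these tables, so depth is unknown. Replicate libraries of a group correlated at r = 0.96 to 0.979 across members, which is a description across genes. Of the 13 hepatocyte noncoding markers 8 had values, and their sum was 2047 to 2258 FPKM in HepG2 and 311 to 349 FPKM in LM3, most of it from H19. Next after H19, except in the LM3 JQ1 libraries, was CPS1-IT1, an intronic transcript of a urea cycle gene. CPS1-IT1 read 6.84 and 6.79 FPKM with vehicle and 1.33 and 1.22 FPKM with JQ1 in HepG2, and 1.34 and 1.41 against 0.41 and 0.26 FPKM in LM3. HULC read 0.5 to 0.8 FPKM over all libraries, and its vehicle and JQ1 libraries overlapped in both lines. LINC01018, a liver-enriched lncRNA, was at 0 to 0.03 FPKM in all libraries. Markers of other cell types (15 listed, 14 with values) summed to 3.81 to 4.09 FPKM in HepG2 and 9.28 to 11.38 FPKM in LM3, mostly MIR503HG. In HepG2 LINC01485 (0.98 and 0.94 to 0.28 and 0.46 FPKM) and LINC00261 (0.48 and 0.64 to 0.05 and 0.08 FPKM) were also lower with JQ1 without overlap, and LINC01554 was higher (0.21 and 0.21 to 0.30 and 0.31 FPKM). The summed levels of vehicle and JQ1 libraries overlapped for both lists in both lines, the first sum being almost all H19, and their part in the results was not tested.

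In HepG2, antisense lncRNAs fell more often than they rose with JQ1. PRR7-AS1, BACE1-AS, DLGAP1-AS2, DNAH17-AS1 and SBF2-AS1 were among 10 members that fell by more than 1 on the log2 scale, where 1 is a 2-fold difference, and CD27-AS1, EMC1-AS1 and ADAMTSL4-AS1 rose by more than 1. At an adjusted p under 0.05 (limma on log2(FPKM + 0.5), adjusted over all 5906 loci tested in this line), 79 of the 289 members were called (27.3%), beside 25.1% of all loci tested. The 61 members that fell were 21.1% of the members, against 14.2% of all loci, and the 18 that rose were 6.23% against 10.8%. Among loci with Ensembl identifiers, which the members are part of, 15.3% fell and 8.12% rose. The median log2 fold change was -0.09 over the members, -0.01 over all loci tested and -0.05 over the Ensembl loci. JQ1 libraries lay below both vehicle libraries for 127 members and above both for 56, where over all loci 33.9% lay below and 32.4% above. With all libraries 112 members had an unadjusted p under 0.05, beside 40.2% of all loci tested. These calls rest on each library. Leaving out 1 leaves 1 in its group, and calls were then fewer or lost, over all loci as over members. The member median was then -0.12 to -0.079.

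PRR7-AS1, which starts near the gene of a proline-rich membrane adaptor protein (chr5:177438503-177447699, minus strand), showed the steepest fall in HepG2. It read 7.17 and 6.59 FPKM with vehicle and 1.63 and 2.34 FPKM with JQ1, a log2 fold change of -1.58 (SE 0.162, limma adjusted p = 0.0088). In LM3 it read 7.32 and 7.40 FPKM with vehicle but 2.02 and 4.19 FPKM with JQ1. The 2 JQ1 libraries of LM3 differed from each other, and the difference of -1.19 (SE 0.314) missed the threshold there (limma adjusted p = 0.0618).

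BACE1-AS lies against the gene of beta-secretase 1, which cleaves the amyloid precursor protein, and is known for stabilising BACE1 mRNA (chr11:117288453-117293571, plus strand). In HepG2 it went from 1.82 and 2.29 FPKM to 0.38 and 0.59 FPKM, a log2 fold change of -1.38 (SE 0.161, limma adjusted p = 0.0107). In LM3 it went from 1.35 and 1.32 FPKM to 0.24 and 0.47 FPKM, a log2 fold change of -1.12 (SE 0.168, limma adjusted p = 0.0189). All JQ1 libraries were below all vehicle libraries, and levels under 0.5 FPKM are close to the pseudocount, which understates such folds.

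DLGAP1-AS1 and DLGAP1-AS2 are neighbours inside the gene of a postsynaptic scaffold protein (chr18:3593732-3598363 and chr18:3603000-3608336, plus strand), and both fell in both lines. DLGAP1-AS1 went from 9.75 and 11.02 FPKM to 4.46 and 4.58 FPKM in HepG2 (-1.11, SE 0.0912) and from 13.21 and 11.78 FPKM to 4.69 and 4.08 FPKM in LM3 (-1.41, SE 0.112), with limma adjusted p = 0.00705 and 0.00763. DLGAP1-AS2, the less abundant of the pair, went from 2.81 and 3.28 FPKM to 0.84 and 1.04 FPKM in HepG2 (-1.3, SE 0.123) and from 3.43 and 2.81 FPKM to 1.5 and 1.23 FPKM in LM3 (-0.96, SE 0.137), with limma adjusted p = 0.00823 and 0.0177. Neither has an exon over a coding exon of the opposite strand, so reads of a coding mRNA from that strand do not overlap their exons in this annotation. Both spans overlap another listed locus on the same strand, with which they may share reads.

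SBF2-AS1 starts beyond the 3′ end of SBF2, which encodes a myotubularin-related regulator of Rab GTPases (chr11:9758268-9811335, plus strand), and its start is among the windows printed above. It fell from 4.80 and 5.82 FPKM to 2.13 and 2.02 FPKM in HepG2 (log2 fold change -1.17, SE 0.115, limma adjusted p = 0.00838). In LM3 it fell from 9.69 and 8.17 FPKM to 2.65 and 2.43 FPKM (log2 fold change -1.63, SE 0.117, limma adjusted p = 0.00657), the largest called change of any member in that line. The groups did not overlap in either line. As listed, the level with JQ1 was close to the same in both lines and the vehicle level was higher in LM3, though scaling may differ between lines.

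Other members of the HepG2 falls were DNAH17-AS1, opposite the gene of an axonemal dynein heavy chain, BASP1-AS1, opposite the gene of a membrane-bound signal protein, and MID1IP1-AS1, opposite the gene of a regulator of lipogenesis. DNAH17-AS1 went from 7.11 and 6.75 FPKM to 2.68 and 2.39 FPKM (-1.29, limma adjusted p = 0.00615), while in LM3 it was near the level filter at 0.69 and 1.07 FPKM with vehicle and 0.50 and 0.50 FPKM with JQ1. BASP1-AS1 fell in both lines, from 5.06 and 6.29 FPKM to 2.20 and 2.36 FPKM in HepG2 and from 4.15 and 3.88 FPKM to 1.09 and 1.57 FPKM in LM3 (-1.15 and -1.32). MID1IP1-AS1 fell in both lines too (-1.13 and -0.63), from 1.76 and 1.04 FPKM to 0.22 and 0.51 FPKM in HepG2. NNT-AS1, beside the gene of the mitochondrial nicotinamide nucleotide transhydrogenase, was the most abundant member to fall in both lines. It went from 19.80 and 18.76 FPKM to 10.28 and 10.07 FPKM in HepG2 (-0.89, limma adjusted p = 0.00697) and from 20.71 and 21.75 FPKM to 10.88 and 12.57 FPKM in LM3 (-0.83, limma adjusted p = 0.013).

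The largest rise in HepG2 was that of CD27-AS1, which lies against the gene of a tumor necrosis factor receptor of lymphocytes (chr12:6439001-6451567, minus strand). It went from 1.69 and 0.82 FPKM to 4.18 and 3.71 FPKM in HepG2 (1.38, SE 0.261, limma adjusted p = 0.0269) and from 0.27 and 0.55 FPKM to 1.22 and 1.45 FPKM in LM3 (1.03, SE 0.192, limma adjusted p = 0.0299). EMC1-AS1, opposite the gene of a subunit of the endoplasmic reticulum membrane protein complex, went from 0.94 and 1.14 FPKM to 2.77 and 3.34 FPKM in HepG2 (1.21, limma adjusted p = 0.00911). In LM3 EMC1-AS1 read 0.45 and 0.34 FPKM with vehicle and 0.76 and 0.91 FPKM with JQ1 (0.58, limma adjusted p = 0.0528) and missed the threshold. Smaller rises called in HepG2 and not in LM3 included those of PDC-AS1 (0.97), opposite the phosducin gene, CARD8-AS1 (0.71), opposite an inflammasome sensor gene, SLC9A3-AS1 (0.66), opposite a sodium-proton exchanger gene, and the abundant IGFL2-AS1 (0.62, limma adjusted p = 0.0138). For IGFL2-AS1 the LM3 value was 0.07 (limma adjusted p = 0.609) and the vehicle and JQ1 libraries of LM3 overlapped.

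In LM3, members again fell more often than they rose. SBF2-AS1, CEACAM16-AS1, DLGAP1-AS1, BASP1-AS1, C1RL-AS1, PLS3-AS1, TM4SF1-AS1 and BACE1-AS had the largest called falls, and CD27-AS1 and ASB16-AS1 the largest rises. Of the 289 members 66 were called (22.8%), beside 23.3% of the 6474 loci tested in this line. The 57 that fell were 19.7% of members against 15.4% of all loci and 15.9% of the Ensembl loci, and the 9 that rose were 3.11% against 7.92% and 5.38%. The split depends on the scaling: with each library centred on its median 18 rose and 47 fell, and with quantile normalization 16 rose and 44 fell. The median log2 fold change was -0.20 over members, -0.08 over all loci tested and -0.15 over the Ensembl loci. JQ1 libraries lay below both vehicle libraries for 134 members and above both for 49, where over all loci 39.7% lay below and 27.0% above. With all libraries 115 members had an unadjusted p under 0.05, beside 40.3% of all loci tested. Leaving out any 1 of the 4 LM3 libraries leaves 1 in its group, and all calls were then lost, over all loci as over members. The member median was then -0.198 to -0.143.

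CEACAM16-AS1 starts beyond the 3′ end of the gene of an inner-ear glycoprotein and runs through it (chr19:44631573-44725217, minus strand). In LM3 it went from 3.10 and 3.36 FPKM to 0.74 and 0.84 FPKM (-1.53, SE 0.0982, limma adjusted p = 0.00565). In HepG2 it went from 1.12 and 1.12 FPKM to 0.54 and 0.68 FPKM (-0.55, SE 0.105, limma adjusted p = 0.0272). Its locus overlaps another listed locus and a coding exon of the opposite strand. C1RL-AS1, next to the gene of a C1r-like complement protease, fell from 7.11 and 8.08 FPKM to 3.54 and 2.59 FPKM in LM3 (-1.19) and from 3.91 and 2.37 FPKM to 1.35 and 1.00 FPKM in HepG2 (-1.10). TM4SF1-AS1, beside the gene of a tetraspanin-like surface protein, fell from 1.68 and 1.64 FPKM to 0.44 and 0.50 FPKM in LM3 (-1.16) and from 1.99 and 1.75 FPKM to 0.89 and 1.07 FPKM in HepG2 (-0.68). PLS3-AS1, beside the gene of the actin-bundling protein plastin 3, fell from 1.3 and 1.46 FPKM to 0.26 and 0.43 FPKM in LM3 (-1.16) and from 0.98 and 0.90 FPKM to 0.25 and 0.40 FPKM in HepG2 (-0.81).

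The 4 members that rose in LM3 and were not called in HepG2 had small changes. KDM4A-AS1, opposite the gene of a histone lysine demethylase, rose from 1.78 and 1.66 FPKM to 2.91 and 2.73 FPKM (0.58, limma adjusted p = 0.02). PPP3CB-AS1, beside the gene of a calcineurin catalytic subunit, rose from 1.17 and 1.35 FPKM to 1.95 and 2.18 FPKM (0.54, limma adjusted p = 0.0323). RNF32-AS1 rose by 0.41 (limma adjusted p = 0.0476), from 1.74 and 1.89 FPKM to 2.45 and 2.69 FPKM. In HepG2 the values of these 3 members were 0.21, 0.32 and 0.49, above 0 in each case and not called. NUP153-AS1, beside a nucleoporin gene, rose from 0.50 and 0.38 FPKM to 0.86 and 0.97 FPKM in LM3 (0.59, limma adjusted p = 0.0427), while in HepG2 it read 2.40 and 2.38 FPKM with vehicle and 2.29 and 2.10 FPKM with JQ1 (-0.10, not called).

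**Figure D2:**
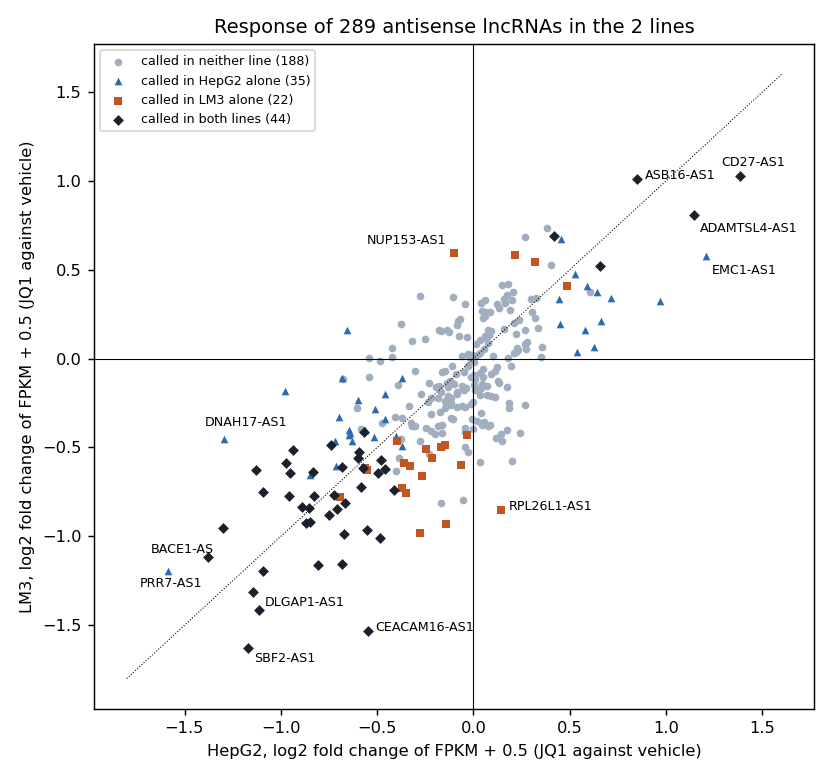
Response to JQ1 (log2 fold change of FPKM + 0.5) of the 289 antisense lncRNAs, HepG2 on the horizontal and LM3 on the vertical axis, 1 point per member and marked by the lines in which it was called, with a dotted line where both responses are equal. The 39 members lower in both lines lie at the lower left, the 5 higher in both at the upper right, and RPL26L1-AS1 lies at 0.15 in HepG2 and -0.85 in LM3.

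Across lines, 44 members were called in the same direction in both (15.2%), beside 14.1% of the 5035 loci tested in both lines, and 0 were called in opposite directions (0.0397% of all loci). Of the 44, 39 fell (8.7% of all loci fell in both) and 5 rose (5.4% of all loci rose in both). The 39 shared falls were 63.9% of the HepG2 falls and 68.4% of the LM3 falls, where over all loci the shares were 68.0% and 64.8%. The 5 shared rises were 27.8% of the HepG2 rises and 55.6% of the LM3 rises, where over all loci they were 49.8% and 64.8%. A further 35 members were called in HepG2 only, 34 of them with the same sign in LM3, and 22 in LM3 only, 20 of them with the same sign in HepG2, while 188 were called in neither. With 1 library left out, which leaves 1 in its group, calls in both lines were fewer or lost, over all loci as over members. Libraries lay apart in the same direction in both lines for 126 members and in opposite directions for 7. The same count over all loci is not given here, so these counts say nothing particular of the members. In single lines, 33.9% of all loci lay below and 32.4% above in HepG2, and 39.7% and 27.0% in LM3. Responses in the 2 lines correlated at r = 0.755 across members and 0.77 across all loci, a description over genes measured in the same 8 libraries.

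The 5 members that rose in both lines were CD27-AS1, described above, ADAMTSL4-AS1, ASB16-AS1, THUMPD3-AS1 and ASH1L-AS1. ASB16-AS1, which starts beyond the 3′ end of a gene for a substrate adaptor of ubiquitin ligases, read 5.72 and 5.71 FPKM with vehicle and 10.77 and 10.63 FPKM with JQ1 in HepG2 (0.85, SE 0.0707, limma adjusted p = 0.00705). In LM3 it read 5.69 and 6.82 FPKM with vehicle and 12.92 and 13.25 FPKM with JQ1 (1.01, SE 0.112, limma adjusted p = 0.0113). THUMPD3-AS1, near the gene of a tRNA methyltransferase, was the most abundant of the 5 and went from 17.32 and 15.76 FPKM to 25.58 and 27.20 FPKM in HepG2 and from 14.73 and 16.19 FPKM to 23.31 and 21.47 FPKM in LM3 (0.66 and 0.52). ADAMTSL4-AS1, opposite the gene of a fibrillin-binding matrix protein, went from 0.87 and 1.06 FPKM to 2.52 and 2.97 FPKM in HepG2 and from 1.5 and 1.28 FPKM to 2.54 and 3.10 FPKM in LM3 (1.15 and 0.81). ASH1L-AS1, beside the gene of a histone H3 lysine methyltransferase, went from 2.58 and 2.40 FPKM to 3.58 and 3.42 FPKM in HepG2 and from 2.98 and 2.92 FPKM to 5.19 and 4.95 FPKM in LM3 (0.42 and 0.69). In each of the 5 the JQ1 libraries lay above both vehicle libraries in both lines.

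Among the 39 shared falls, members with a mean vehicle level above 5 FPKM in both lines included NNT-AS1, PCBP1-AS1, KRT10-AS1, SLC16A1-AS1, DLGAP1-AS1, EML2-AS1, C10orf95-AS1, STX18-AS1, MCM3AP-AS1, TMEM147-AS1 and SBF2-AS1. PCBP1-AS1 (PCBP1 encodes a poly(C)-binding protein) went from 10.83 and 10.29 FPKM to 6.83 and 7.27 FPKM in HepG2 and from 14.66 and 14.65 FPKM to 7.02 and 7.50 FPKM in LM3 (-0.55 and -0.97). KRT10-AS1, opposite a keratin gene and classed as coding by GENCODE, went from 10.99 and 11.02 FPKM to 6.52 and 7 FPKM and from 12.14 and 10.92 FPKM to 6.65 and 6.02 FPKM (-0.67 and -0.82). SLC16A1-AS1, beside the monocarboxylate transporter MCT1 gene, went from 7.66 and 8.19 FPKM to 3.56 and 4.14 FPKM and from 12.76 and 13.45 FPKM to 7.75 and 7.17 FPKM (-0.96 and -0.77). The groups of these 3 members did not overlap in either line. PRKCH-AS1 (PRKCH encodes a protein kinase C), CD63-AS1 (CD63 encodes a tetraspanin of endosomes), AGAP2-AS1 (AGAP2 encodes an ARF GTPase-activating protein) and GOLGA4-AS1 (GOLGA4 encodes a golgin) fell by close to the same amount in both lines, with HepG2 values of -0.85, -0.83, -0.85 and -0.87 and LM3 values of -0.92, -0.77, -0.84 and -0.93. CSRP1-AS1 went from 2.14 and 2.20 FPKM to 0.91 and 0.75 FPKM in LM3 (-1.01) and from 0.85 and 0.99 FPKM to 0.51 and 0.52 FPKM in HepG2 (-0.48). PPP1R26-AS1 (-0.71 in HepG2, -0.85 in LM3), TNS2-AS1 (-0.94, -0.52), NINJ2-AS1 (-0.68, -0.61), PRR34-AS1 (-0.59, -0.73), FAM131B-AS2 (-0.41, -0.74), KTN1-AS1 (-0.46, -0.62), KHDC1-AS1 (-0.49, -0.64), MYLK-AS1 (-0.58, -0.62) and PXN-AS1 (-0.57, -0.41) also fell in both lines. PXN-AS1 lay close to the threshold in both lines, with limma adjusted p = 0.0475 in HepG2 and 0.0491 in LM3.

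The response of 1 member passed the test of a difference between the lines, a call that did not hold in every setting. RPL26L1-AS1, beside the gene of a ribosomal protein L26 paralog (chr5:172954786-172959392, minus strand), read 1.99 and 1.99 FPKM with vehicle and 2.18 and 2.33 FPKM with JQ1 in HepG2. In LM3 it read 3.46 and 3.73 FPKM with vehicle and 1.75 and 1.79 FPKM with JQ1. Its log2 fold change was 0.15 in HepG2 (limma adjusted p = 0.268) and -0.85 in LM3 (limma adjusted p = 0.0104), and the difference, LM3 minus HepG2, was -0.996 (SE 0.108, limma adjusted p = 0.028). That 1 call is 0.346% of the members, beside 0.218% of all 5035 loci tested for the difference (0.0199% higher and 0.199% lower in LM3, and 0.182% lower among Ensembl loci). An unadjusted p under 0.05 was found for 36 members and for 12.0% of all loci. RPL26L1-AS1 starts within 2000 bases of the start of RPL26L1. Its exons overlap a coding exon of the opposite strand, and its span overlaps another listed locus. With any 1 of the 8 libraries left out, which leaves 1 in its group, this call was lost. Calls for the difference over all loci were then fewer or lost too. Quantile normalization and the replicate block also called 0 members, with an unadjusted p under 0.05 for 33 in each. The difference of response of RPL26L1-AS1, LM3 minus HepG2, was -0.885 after quantile normalization (limma adjusted p = 0.0524) and -0.996 with the block (limma adjusted p = 0.238).

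Other members had values that differed between lines and missed the threshold for the difference. The difference for CEACAM16-AS1 was -0.98 (SE 0.136, limma adjusted p = 0.0689). For DNAH17-AS1, GCC2-AS1 and DHRS4-AS1 it was 0.84, 0.82 and 0.79, with limma adjusted p = 0.211, 0.211 and 0.151, and each of these fell in HepG2. DHRS4-AS1, opposite the gene of a retinol-handling short-chain dehydrogenase, went from 9.20 and 9.09 FPKM to 4.49 and 4.31 FPKM in HepG2 (-0.98, limma adjusted p = 0.00615), while in LM3 it was at 0.90 and 1.00 FPKM with vehicle and 0.90 and 0.66 FPKM with JQ1. GCC2-AS1, opposite a golgin gene, went from 1.08 and 0.99 FPKM to 0.51 and 0.44 FPKM in HepG2 (-0.66) and was at 1.18 and 0.89 FPKM with vehicle and 1.37 and 1.06 FPKM with JQ1 in LM3. ARHGEF35-AS1 fell in LM3, from 6.46 and 7.90 FPKM to 3.24 and 3.50 FPKM (-0.98), and was at 1.49 and 1.52 FPKM with vehicle and 1.04 and 1.27 FPKM with JQ1 in HepG2 (-0.28, not called). The difference for ARHGEF35-AS1 was -0.70 (limma adjusted p = 0.22). It lies in a region with near-identical copies, with OR2A1-AS1 among them, so its level is uncertain. The LM3 minus HepG2 difference of IGFL2-AS1 was -0.56 (limma adjusted p = 0.198) and that of NUP153-AS1 0.69 (limma adjusted p = 0.173).

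**Figure D3:**
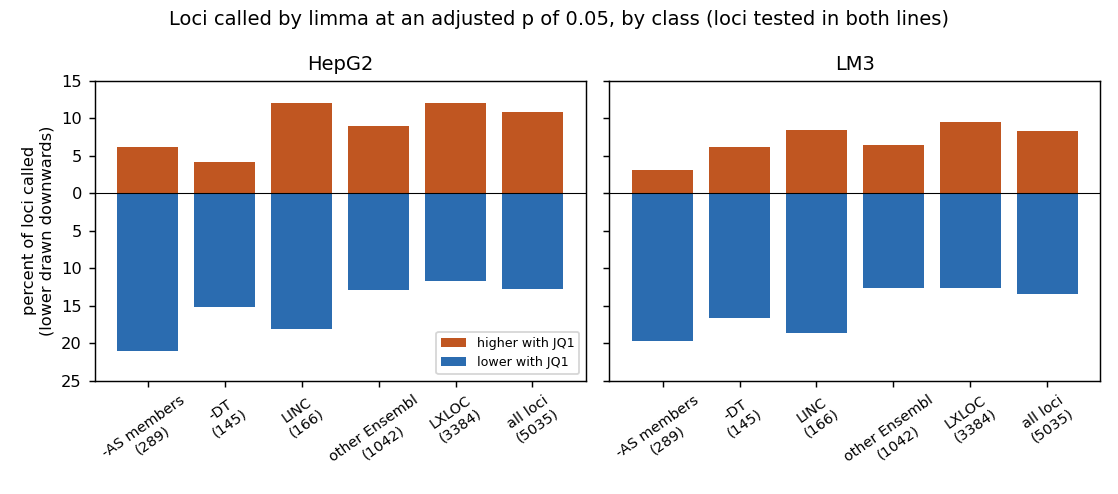
Share of loci called higher or lower with JQ1 (percent of loci tested in both lines) for -AS members (n = 289), divergent lncRNAs with -DT names (n = 145), intergenic lncRNAs with LINC names (n = 166), other Ensembl loci (n = 1042), LXLOC loci (n = 3384) and all loci (n = 5035), 1 panel per line, with lower drawn downwards. Members called lower were 21.1% in HepG2 and 19.7% in LM3, beside 12.8% and 13.4% of all loci tested in both lines.

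Other named lncRNA classes also fell more often than they rose. Of 145 divergent lncRNAs with -DT names, 6 rose and 22 fell in HepG2 (4.14% and 15.2%) and 9 rose and 24 fell in LM3 (6.21% and 16.6%). Of 166 intergenic lncRNAs with LINC names, 20 rose and 30 fell in HepG2 (12% and 18.1%) and 14 rose and 31 fell in LM3 (8.43% and 18.7%). The member shares, 6.23% and 21.1% in HepG2 and 3.11% and 19.7% in LM3, lie beside these without a test of the difference. Median log2 fold changes were -0.09 and -0.20 for members, -0.02 and -0.09 for -DT loci and -0.05 and -0.20 for LINC loci. The unnamed LXLOC loci, which make up 3384 of the 5035, rose in 12.1% and 9.49% and fell in 11.7% and 12.6%.

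The members were also grouped by what the protein of the partner gene does, which says nothing of what the antisense RNA does. The lists were made by matching gene symbols and symbol prefixes. They therefore miss some genes of a role and hold others that fit it loosely. The counts below stand beside 14.2% lower and 10.8% higher of all loci tested in HepG2, and 15.4% and 7.92% in LM3. Antisense RNAs to transcription factor and chromatin genes numbered 27, of which 1 rose and 6 fell (22.2%) in HepG2 and 2 rose and 7 fell (25.9%) in LM3, with medians of -0.16 and -0.28. NR2F1-AS1, opposite the gene of the orphan nuclear receptor COUP-TFI, fell from 8.81 and 7.19 FPKM to 4.19 and 4.89 FPKM in HepG2 and from 4.70 and 4.01 FPKM to 1.93 and 2.34 FPKM in LM3 (-0.75 and -0.88). IRF1-AS1, near the gene of interferon regulatory factor 1, fell from 1.5 and 1.96 FPKM to 0.64 and 0.45 FPKM in HepG2 (-1.09) and from 0.98 and 0.87 FPKM to 0.32 and 0.37 FPKM in LM3 (-0.75). ZNF407-AS1, beside a zinc finger gene, fell by 0.83 in HepG2 and by 0.64 in LM3.

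Antisense RNAs to genes of protein turnover, folding and vesicle traffic numbered 24, of which 3 rose and 8 fell (33.3%) in HepG2 and 1 rose and 6 fell (25%) in LM3, with medians of -0.11 and -0.22. Of all loci tested, 14.2% fell in HepG2 and 15.4% in LM3. BACE1-AS, SBF2-AS1 and EMC1-AS1, described above, belong here, as do GOLGA4-AS1, STX18-AS1 and RAB4A-AS1. STX18-AS1, beside the gene of an endoplasmic reticulum syntaxin, fell from 7.37 and 6.50 FPKM to 3.57 and 4.84 FPKM in HepG2 and from 7.85 and 7.54 FPKM to 2.85 and 4.59 FPKM in LM3 (-0.67 and -0.99). RAB4A-AS1, beside the gene of a recycling-endosome GTPase, fell by 0.59 and 0.53, and FBXL19-AS1, next to an F-box gene, fell in LM3 (-0.66) and was not called in HepG2 (-0.27).

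Antisense RNAs to metabolism, mitochondria and transport genes numbered 20, with 2 higher and 5 lower (25%) in HepG2 and 0 higher and 3 lower (15%) in LM3, with medians of -0.18 and -0.14. Against 14.2% and 15.4% of all loci, the LM3 share was near the background. SLC16A1-AS1, ATP8B1-AS1 and ALDH1A3-AS1 fell in both lines. ATP8B1-AS1, opposite the gene of the phospholipid flippase of bile canaliculi, went from 1.56 and 1.40 FPKM to 0.56 and 0.46 FPKM in HepG2 and from 1.31 and 1.25 FPKM to 0.69 and 0.68 FPKM in LM3 (-0.97 and -0.59). ALDH1A3-AS1, opposite a retinaldehyde dehydrogenase gene, went from 0.76 and 1.08 FPKM to 0.25 and 0.21 FPKM in HepG2 and from 0.85 and 1.04 FPKM to 0.37 and 0.48 FPKM in LM3 (-0.95 and -0.64).

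Antisense RNAs to genes of the cell cycle, DNA repair, cytoskeleton and adhesion numbered 20, with 1 higher and 4 lower (20.0%) in HepG2 and 0 higher and 6 lower (30.0%) in LM3, with medians of -0.01 and -0.21, beside 14.2% and 15.4% of all loci lower. DLGAP1, the postsynaptic scaffold gene, is in this list by name, and MCM3AP, the gene of an mRNA export factor, by its MCM prefix. Besides the DLGAP1 pair, MCM3AP-AS1 fell from 5.89 and 6.12 FPKM to 3.09 and 3.71 FPKM in HepG2 (-0.74). In LM3 MCM3AP-AS1 fell from 5.66 and 6.25 FPKM to 4.36 and 3.87 FPKM (-0.49). CCDC18-AS1 fell in LM3 (-0.73, limma adjusted p = 0.013) and was at -0.37 in HepG2 (limma adjusted p = 0.088). Of the 14 antisense RNAs to RNA processing and translation genes, 2 rose and 1 fell (7.14%) in HepG2 and 1 rose and 3 fell (21.4%) in LM3, with medians of 0.03 and -0.19. The rises in HepG2 were those of THUMPD3-AS1 and NOP14-AS1 (0.53, limma adjusted p = 0.02), and the falls were those of PCBP1-AS1 in both lines and of MBNL1-AS1 (-0.78) and RPL26L1-AS1 in LM3. The 184 members in no list included 9 higher and 37 lower (20.1%) in HepG2 and 5 higher and 32 lower (17.4%) in LM3, with medians of -0.09 and -0.19.

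**Figure D4:**
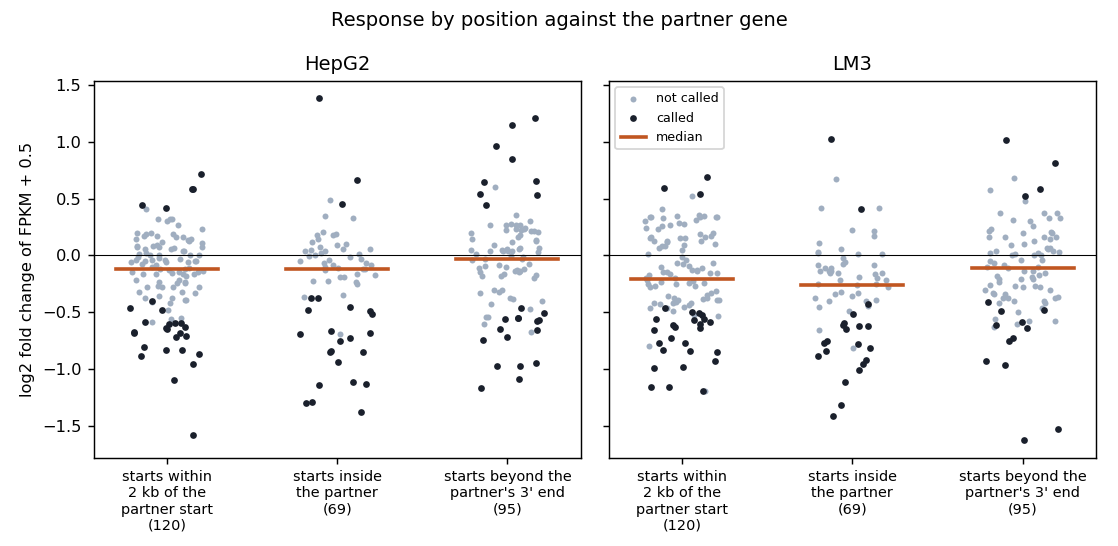
Responses of members to JQ1 (log2 fold change) by where they start relative to their partner gene, 1 panel per line and 1 point per member, for members that start within 2 kb of the partner start (n = 120), inside the partner (n = 69) and beyond its 3′ end (n = 95). The spread of points across a class carries no value, and bars are medians. The median of members that start inside the partner is -0.12 in HepG2 and -0.26 in LM3, and that of members starting beyond its 3′ end is -0.03 and -0.11.

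Members were also divided by where they start relative to their partner, and the shares below stand beside 14.2% lower of all loci in HepG2 and 15.4% in LM3. Of all loci, 10.8% rose in HepG2 and 7.92% in LM3. Of the 69 members that start inside their partner, 21 fell in HepG2 (30.4%) and 19 in LM3 (27.5%), and 3 and 2 rose, with BACE1-AS and both DLGAP1 antisense RNAs among the falls. Of the 120 that start within 2000 bases of the partner start, 23 fell in HepG2 (19.2%) and 25 in LM3 (20.8%), and 5 and 3 rose, with PRR7-AS1, NNT-AS1 and SLC16A1-AS1 among the falls. Of the 95 that start beyond the partner 3′ end, 16 fell in HepG2 (16.8%) and 12 in LM3 (12.6%), and 9 and 4 rose. Of these 95, 3 rose in both lines (ADAMTSL4-AS1, ASB16-AS1 and THUMPD3-AS1, of 5 members in all), where 5.4% of all loci rose in both. So few members do not set this class apart. These splits were chosen after the values were seen and were not tested. Members with an exon over a coding exon of the opposite strand (236) had 15 rises and 46 falls in HepG2 and 9 and 47 in LM3, and the other 53 had 3 and 15 in HepG2 and 0 and 10 in LM3. By mean level, 32.0% of the 97 most abundant members, 28.1% of the next 96 and 21.9% of the 96 least abundant were called in HepG2, and 28.9%, 28.1% and 11.5% in LM3. These are calls in either direction, beside 25.1% of all loci tested in HepG2 and 23.3% in LM3. A locus on the mitochondrial minus strand that lies opposite both ribosomal RNA genes was listed at 1476 to 2081 FPKM in HepG2 and 1060 to 1274 FPKM in LM3. Whether part of that signal comes from the ribosomal RNA itself was not tested.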

How the data were processed

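RNA of 8 libraries was profiled, 2 per group. The authors deposited FPKM values per locus, scaled to transcript length and mapped total, 1 table per cell line with 23161 loci, of which 15469 had values. The submitters' processing notes name Bowtie 0.12.2, hg19 and mm8, without saying which was used for which step; the quantifier, annotation and counting strand are not given in any source used here. Coordinates matched GRCh38: of 8453 Ensembl identifiers found in GENCODE release 29, 83.9% had the same start. Symbols came from the gene name table.

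FPKM are not counts, and whole fragments could not be recovered (26.8% to 36.1% of low values lay within 0.1 of a whole step), so no count model was used. Per line, loci whose mean over 4 libraries reached 0.5 FPKM were tested on log2(FPKM + 0.5) with limma 3.58.1 in R 4.3.3 (empirical Bayes with trend and robust settings), two-sided, JQ1 minus vehicle, with Benjamini-Hochberg adjustment over all loci tested and a threshold of 0.05. The difference of response came from 1 fit over the 8 libraries. Fold changes are on the log2(FPKM + 0.5) scale, which understates low loci. The procedure was tested on simulated data.

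The members and lists were chosen with earlier results of these data known. Members named are the 8 largest called changes per line and direction with libraries apart and the higher group averaging 1 FPKM or more, the 4 most abundant per line, all called in both lines, the 4 with the smallest adjusted p for the difference per direction, and the 3 with the smallest p per partner list and line. The motif list, the splits by position, exon overlap, level and span, and the limits on which promoters are printed (a RefSeq start within 100 bases, at least 200 bases outside coding-gene exons) were set after seeing the data, the promoter limits after looser ones had been tried and their windows seen. Alternatives are the pseudocount, level filter, scaling, fit options, replicate block and leaving out each library.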

Additional observations from a re-analysis of the deposited data

Results flagged for a closer look

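The response of RPL26L1-AS1 differed between the lines, by -0.996 on the log2 scale (LM3 minus HepG2, limma adjusted p = 0.028). The call was lost with the replicate block, after quantile normalization and with any 1 of the 8 libraries left out. It read 1.99 and 1.99 FPKM with vehicle and 2.18 and 2.33 FPKM with JQ1 in HepG2, and 3.46 and 3.73 against 1.75 and 1.79 FPKM in LM3.

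The libraries of NUP153-AS1 moved in opposite directions in the 2 lines, with a difference of 0.694 on the log2 scale. It read 2.40 and 2.38 FPKM with vehicle and 2.29 and 2.10 FPKM with JQ1 in HepG2, and 0.50 and 0.38 against 0.86 and 0.97 FPKM in LM3. The test of this difference missed the threshold (limma adjusted p = 0.173).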

How the results depend on the processing

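With pseudocounts of 0.1 or 1, a filter of 1 FPKM, library centring, quantile normalization, rescaling without ribosomal RNA and mitochondrial loci, plain limma and a replicate block, the counts of members called in each line stayed within 1.5 times the reported ones. Without the level filter 43 members were called in HepG2 (14.9%), 42 in LM3 (14.5%), 20 in both lines and 2 for the difference (0.692%). Over all loci, 852 of 14354 were then called in HepG2, 857 of 14050 in LM3 and 94 of 12935 for the difference. The added loci lie below the level filter that the members passed. The count over all loci called in both lines in that setting is not given here. Among the 53 members with no exon over a coding exon of the opposite strand, 18 were called in HepG2 (34.0%), 10 in LM3 (18.9%), 8 in both and 0 for the difference, where 5 had an unadjusted p under 0.05. Of all loci tested, 25.1% were called in HepG2, 23.3% in LM3, 14.1% in both in the same direction and 0.218% for the difference. For the difference, 12.0% of all loci had an unadjusted p under 0.05. The difference gave 2 members with a pseudocount of 1, 0 after quantile normalization and 0 with the replicate block (33 with an unadjusted p under 0.05 in each of the last 2 settings). Over all 5035 loci these settings called 19, 5 and 0. With 2 pairs per line, the libraries were not taken as paired by number (r of same-numbered deviations -0.035 in HepG2 and 0.135 in LM3, so pairing in LM3 was not settled), and the block called 82 members in HepG2 and 61 in LM3. Leaving out 1 library gave 0 to 29 members in HepG2, 0 in LM3, 0 for the difference and 0 to 20 in both lines. The HepG2 median was -0.049 with centring and -0.142 with rescaling, and -0.12 to -0.079 with 1 library left out. The LM3 median was -0.256 and -0.151 with pseudocounts of 0.1 and 1, -0.114 with centring, -0.107 with quantile normalization, -0.147 with rescaling, -0.231 among those 53 members and -0.198 to -0.143 with 1 library left out. The log2 fold change of FGD5-AS1 in LM3, which was not called, changed sign to 0.040 with centring, 0.025 with rescaling and, with 1 library left out, ranged from -0.134 to 0.049 (the latter without LM3 JQ1 replicate 2). Of 106 called values of the members named, 32 lost the call without the level filter, 10 with quantile normalization, 9 with the block and 8 with centring. The causes were not tested. Depth is unknown, which limits the low levels most.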
